A study of Bos indicus x Bos taurus with 45 samples.

Results

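The miRNAs bta-miR-1, bta-miR-133a, bta-miR-133b, bta-miR-206, bta-miR-208b and bta-miR-499 (bta for Bos taurus, left out below) are the classical miRNAs of striated muscle, and they were followed here through 4 tissues of bovine fetuses. They were taken by name from the deposited count tables, with any arm of the hairpin precursor, and miR-208a was searched for too. This gave 9 entries among the 603 distinct miRNA names of the 4 tables. All 9 were listed in skeletal muscle, which held 439 miRNAs. Tongue listed 8 of them among 460 miRNAs (miR-499-3p was missing), liver 3 among 563 (miR-133a, miR-133b and miR-499) and kidney 1 among 436 (miR-133a). miR-208a was listed in none of the tables.

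The fetuses were Bos indicus x Bos taurus crosses at about day 105 of gestation. Control fetuses were healthy and conceived by artificial insemination. LOS fetuses were conceived by assisted reproduction (ART) and had large offspring syndrome, an overgrowth condition of ruminants, while ART fetuses, present in liver only, came from assisted reproduction and were labelled healthy. Skeletal muscle had 4 control and 4 LOS libraries, tongue 9 and 7, kidney 4 and 4, and liver 5 control, 4 LOS and 4 ART libraries. Outside liver, the conception method and the overgrowth therefore cannot be told apart. Fetal sex was given for tongue alone, with 5 female and 4 male controls and 4 female and 3 male LOS fetuses. The labels do not say which skeletal muscle or which part of the tongue was taken, which assisted reproduction procedure was used, or whether fetuses had separate dams, so p-values measure the spread between these samples, which may in part be technical.

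A miRNA is a short RNA that is cut from a hairpin precursor and represses messenger RNAs that pair with it. miR-1 and miR-133a are made from shared transcripts in skeletal and heart muscle, and miR-206 and miR-133b from another shared transcript that is active in skeletal muscle and its precursors. Members of the miR-1 and miR-206 family promote the differentiation of myoblasts, and miR-133 has been tied to myoblast proliferation. miR-208b lies in an intron of MYH7, the gene of slow (type I) myosin heavy chain, and miR-499 in an intron of MYH7B, and both are known for their part in the slow fibre programme. The suffixes -5p and -3p mark here the arm that is usually the less abundant one of its precursor. The mature miR-133a and miR-133b are near-identical, and how reads fitting both were assigned is not given in the sources used here, so the split between them is uncertain. In these tables miR-1, miR-133a and miR-133a-5p carried an entry for mixed precursors, meaning that their reads were not tied to a single hairpin.

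Levels are given in CPM, counts scaled to the sum of reads that the table lists for a library. Listed reads per library ran from 4744968 to 6456252 in skeletal muscle, 9357833 to 13822348 in tongue, 6132982 to 9170756 in kidney and 3379816 to 4976770 in liver. The tables hold the more abundant miRNAs and contain no count of 0, so no upper limit can be set for a miRNA that is not listed. Libraries are bulk tissue, in which fewer cells of a type and less RNA per cell cannot be told apart. Markers of epithelium (miR-200 family, miR-141, miR-429, miR-203 and miR-205, summed, 2 of them listed in muscle) stood at 3363 to 7263 CPM in the tongue libraries and at 12.7 to 76.4 CPM in skeletal muscle, and liver alone carried the hepatocyte markers miR-122 and miR-885 at 15400 CPM or more.

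Together the listed muscle miRNAs made up about the same share of listed reads in both striated tissues and almost none elsewhere. Each sum holds only the entries listed for that tissue, 9 in muscle, 8 in tongue, 3 in liver and 1 in kidney. Members that are not listed add nothing to it. The share was 1.97% to 2.17% in muscle controls, 1.80% to 2.25% in muscle LOS, 1.61% to 2.41% in tongue controls and 1.74% to 2.17% in tongue LOS. In kidney it ran from 0.00177% to 0.00876% and in liver from 0.00625% to 0.0209%. These shares rest mostly on miR-133a.

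**Figure D1:**
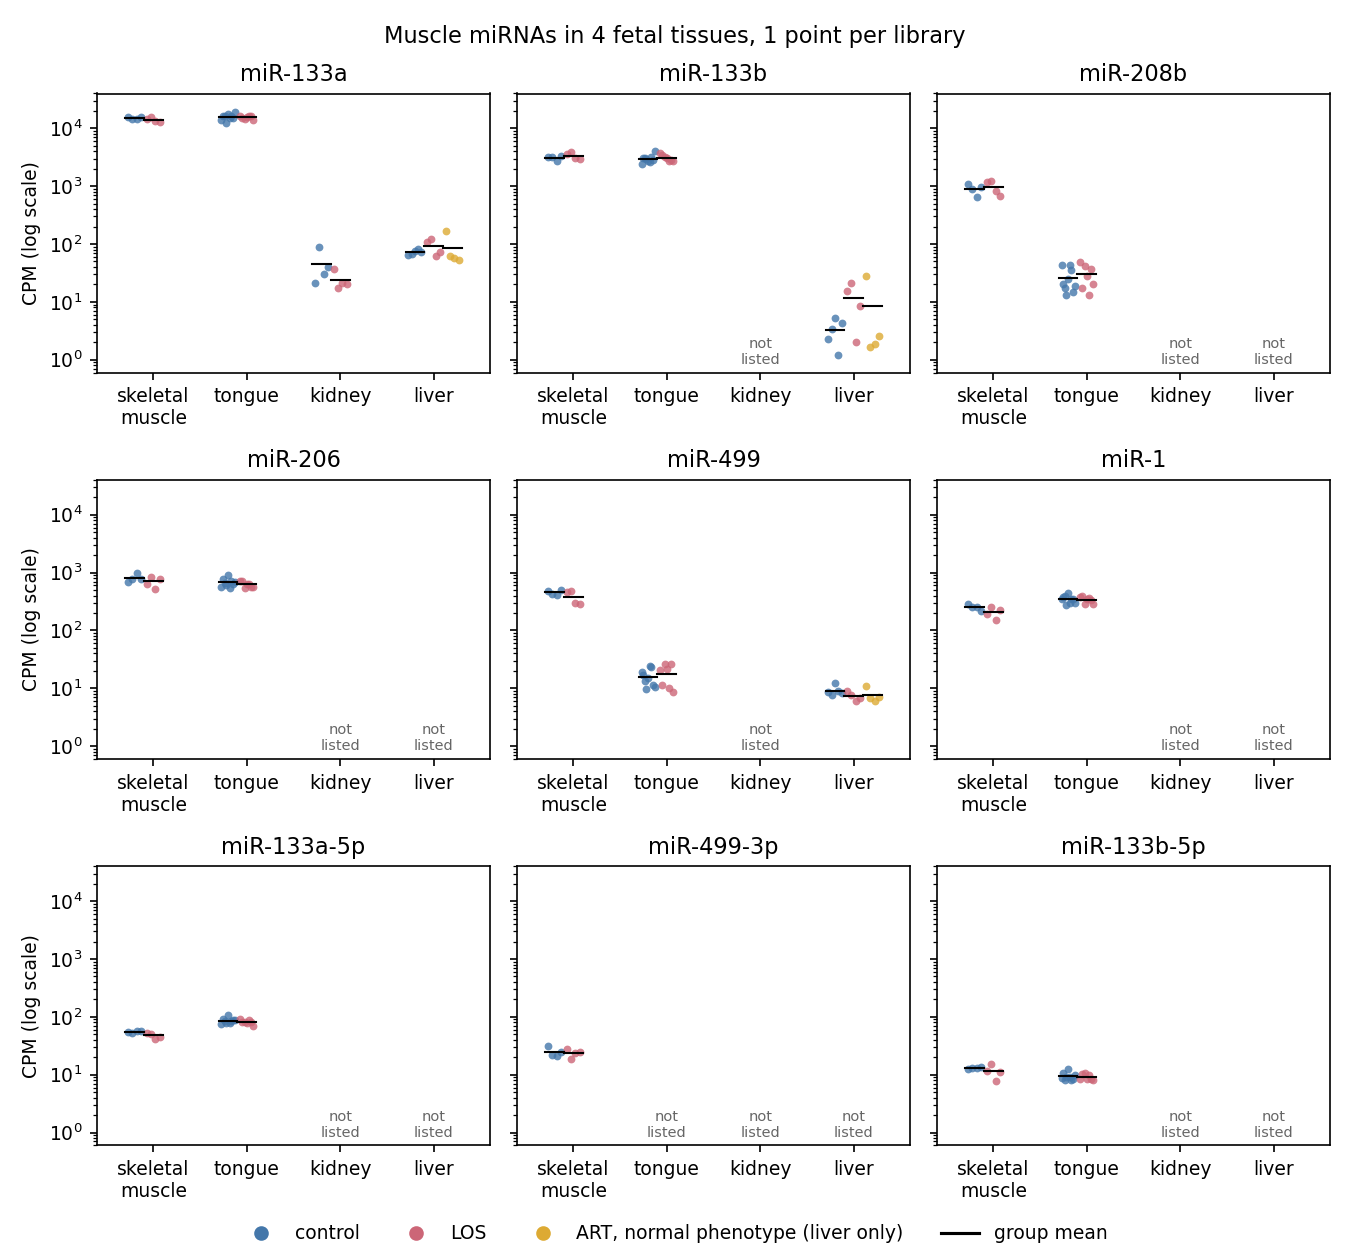
CPM (log axis) of the 9 muscle miRNAs in skeletal muscle, tongue, kidney and liver, with 1 point per library, a bar at the group mean and colours for control, LOS and ART. miR-133a lies between 12202 and 18955 CPM in muscle and tongue, and miR-208b and miR-499 show the widest gaps between those tissues.

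In skeletal muscle the order of the means over 8 libraries was miR-133a (14650 CPM), miR-133b (3231 CPM), miR-208b (934 CPM), miR-206 (750.3 CPM), miR-499 (418 CPM), miR-1 (230.3 CPM), miR-133a-5p (51.3 CPM), miR-499-3p (24.3 CPM) and miR-133b-5p (12.3 CPM). miR-133a ranked 15th, miR-133b 38th, miR-208b 83rd and miR-206 94th of the 439 listed miRNAs by level. miR-208b and miR-206 were neighbours whose libraries overlapped, and the ratio of miR-206 to miR-208b ran from 0.549 to 1.51 within libraries. miR-133a varied least among the 9, with a within-group standard deviation (SD) of 0.10 on the log2 scale, against 0.21 for the median listed miRNA, and miR-208b varied most, at 0.37.

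The first comparison asked whether these miRNAs differ in skeletal muscle of overgrown fetuses. None of the 9 passed edgeR's quasi-likelihood test at an adjusted p of 0.05, and neither did any other of the 439 miRNAs (0% called), although 58 of them had an unadjusted p under 0.05 and DESeq2 called 17, none of them a muscle miRNA. 7 of the 9 estimates lay below 0 and 2 above, with a median of -0.16 on the log2 scale, beside a median of -0.01 over all listed miRNAs. Only miR-133a-5p had groups that did not overlap, 1 of 9 against 7.06% of all listed miRNAs.

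Of the miR-1 and miR-133a pair, miR-1 stood at 284, 259, 252 and 220.8 CPM in controls 1 to 4 and at 191.9, 258, 152 and 224 CPM in LOS 1 to 4. LOS 1 and LOS 3 lay below every control and the other LOS fetuses among them. The difference was -0.28 ± 0.15 (log2, standard error, SE; 95% interval -0.62 to 0.06; edgeR adjusted p = 0.416). miR-133a, the most abundant of the group, stood at 15852, 14741, 14610 and 15564 CPM in controls and at 14474, 15696, 13273 and 12987 CPM in LOS. 3 LOS fetuses lay below every control and LOS 2 did not, and the interval of the difference ran from -0.25 to 0.08 (-0.08 ± 0.07, edgeR adjusted p = 0.614). Its other arm, miR-133a-5p, stood at 54.4, 53.2, 56.2 and 55.9 CPM in controls and at 53.0, 50.9, 41.3 and 45.3 CPM in LOS. All 4 LOS values were below the lowest control, LOS 1 by less than 1 CPM, and the difference of -0.18 ± 0.10 did not pass (edgeR adjusted p = 0.429).

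Of the other shared transcript, miR-206, the skeletal muscle relative of miR-1, stood at 686, 768, 974 and 769 CPM in controls and at 643, 850, 526.03 and 787 CPM in LOS. The groups overlapped, and the difference was -0.16 ± 0.15 (edgeR adjusted p = 0.625). miR-133b stood at 3185, 3180, 2684 and 3386 CPM in controls and at 3540, 3886, 3044 and 2941 CPM in LOS, so that LOS 1 and LOS 2 were the highest of the 8. Its difference was 0.13 ± 0.11 (95% interval -0.10 to 0.37; edgeR adjusted p = 0.573). miR-133b-5p lay at 12.6 to 13.5 CPM in the controls and spread from 7.80 to 15.3 CPM in LOS, on 37 to 97 reads per library over both groups.

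Among the miRNAs of myosin introns, miR-208b stood at 1072, 910, 643 and 957 CPM in controls and at 1171, 1227, 813 and 679 CPM in LOS. LOS 1 and LOS 2 were the highest libraries, control 3 and LOS 4 the lowest, and the interval of the difference was the widest of the 9, from -0.34 to 0.60 (0.13 ± 0.21, edgeR adjusted p = 0.808). miR-499 stood at 487, 434, 405 and 493.01 CPM in controls and at 461, 476, 300.3 and 286 CPM in LOS. LOS 3 and LOS 4 lay below every control and the other LOS fetuses within the control range (-0.24 ± 0.17, edgeR adjusted p = 0.514). The minor arm miR-499-3p did not share that order, at 31.5, 21.99, 20.9 and 24.7 CPM in controls and 28.2, 18.8, 23.8 and 24.5 CPM in LOS. Summed fibroblast markers (miR-199a, miR-199b and miR-214) ran from 15837 to 17603 CPM in muscle controls and from 13531 to 16329 CPM in muscle LOS, and their part in these values was not tested.

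**Figure D2:**
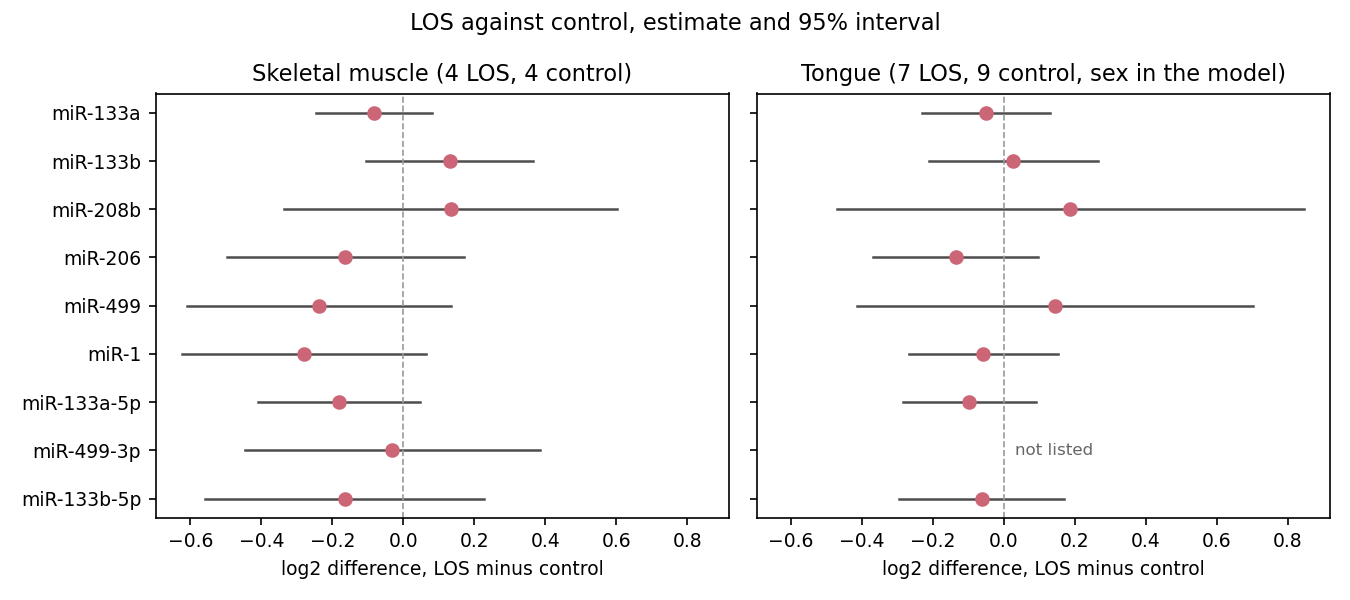
Log2 difference LOS minus control with its 95% interval for each muscle miRNA in skeletal muscle (left, 4 against 4) and tongue (right, 7 against 9, with a term for sex). Every interval includes 0, and those of miR-208b and miR-499 are the widest in tongue.

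Ratios between 2 muscle miRNAs of the same library need no scaling, and for some of them the muscle groups did not overlap. A lack of overlap is not a test, and the single miRNA miR-133a-5p had it too. Reads of miR-133a over those of miR-133b gave 4.60 to 5.44 in the 4 controls (mean 4.91 ± 0.39, SD) and 4.04 to 4.42 in the 4 LOS fetuses (4.23 ± 0.19), with no overlap. Reads of miR-208b over those of miR-499 gave 1.59 to 2.20 in controls (1.96 ± 0.27) and 2.37 to 2.71 in LOS (2.55 ± 0.14), again without overlap. For miR-133b over miR-133b-5p the LOS range (253.3 to 390.3) began where the control range (205.1 to 253.0) ended. These are 3 of 9 ratios computed in muscle, and 0 of the 8 ratios computed in tongue had groups that did not overlap. These counts cannot be compared, because larger groups, as in tongue, separate less often by chance. Among single miRNAs, CPM of the groups did not overlap for 7.06% in muscle and 0% in tongue. The ratios with miR-133b also depend on how reads shared with miR-133a were assigned. All 3 ratios were noticed after the values were seen and carry no test. The share of all miRNA pairs with such a separation was not computed. The ratio of miR-206 to miR-1 showed no such separation, at 2.41 to 3.86 in muscle controls and 3.29 to 3.51 in muscle LOS.

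**Figure D3:**
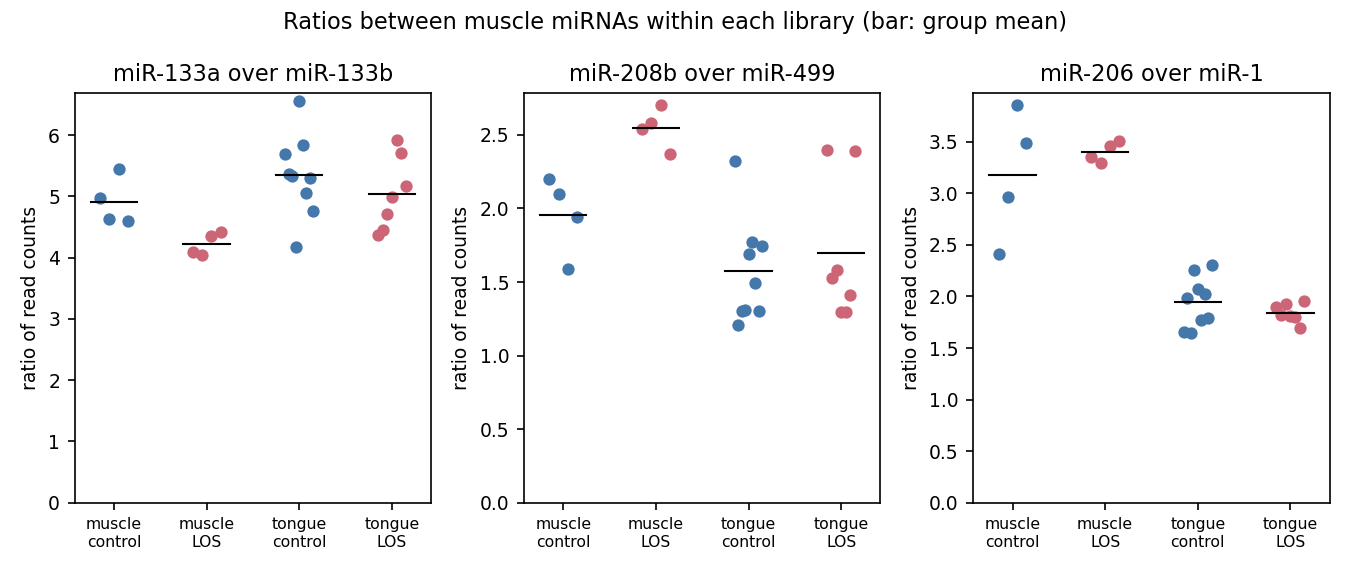
Ratios of read counts within each library for miR-133a over miR-133b, miR-208b over miR-499 and miR-206 over miR-1, with 1 point per library and a bar at the group mean. The control and LOS points of muscle do not overlap in the first 2 panels, and in tongue they overlap in all 3.

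In tongue the order of the means over 16 libraries was miR-133a (15679 CPM), miR-133b (3040 CPM), miR-206 (653 CPM), miR-1 (345 CPM), miR-133a-5p (84.3 CPM), miR-208b (27.5 CPM), miR-499 (16.8 CPM) and miR-133b-5p (9.30 CPM). miR-133a ranked 17th of 460, while miR-208b ranked 311th and miR-499 346th. These last 2 were also among the most variable miRNAs of the tissue. With a within-group SD of 0.68 for miR-208b and 0.58 for miR-499 on the log2 scale, they ranked 22nd and 28th of 460 by spread, where the median listed miRNA had 0.21.

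None of the 8 muscle miRNAs passed the test of LOS against control in tongue, and none of the 460 miRNAs did (0% called by edgeR, 25 at an unadjusted p under 0.05). The groups overlapped for all 8, as they did for all 460 listed miRNAs (0% without overlap). miR-208b had a lowest, median and highest value of 13.01, 20.4 and 44.0 CPM in the 9 controls and of 13.1, 28.3 and 49.7 CPM in the 7 LOS fetuses. Both groups covered nearly the same range, and the interval of the difference was wide (0.19 ± 0.31, 95% interval -0.47 to 0.84, edgeR adjusted p = 0.916). For miR-499 the values were 9.91, 14.9 and 24.2 CPM in controls and 8.62, 20.8 and 26.6 CPM in LOS, with a difference of 0.14 ± 0.26 (edgeR adjusted p = 0.931). miR-206 ran from 532 over 649.5 to 903 CPM in controls and from 544 over 624 to 727 CPM in LOS (-0.14 ± 0.11, interval -0.37 to 0.10, edgeR adjusted p = 0.915).

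The intervals of miR-133a, miR-133b and miR-1 were narrower than those of miR-208b and miR-499, as was that of miR-206. miR-133a ran from 12202 over 16448 to 18955 CPM in tongue controls and from 13819 over 15441 to 16652 CPM in LOS, and the interval of its difference ran from -0.23 to 0.13 (-0.05 ± 0.09, edgeR adjusted p = 0.916). miR-133b ran from 2405 over 2920 to 3982 CPM in controls and from 2672 over 3091 to 3807 CPM in LOS (0.03 ± 0.11, edgeR adjusted p = 0.987). miR-1 ran from 270.4 over 349.9 to 436 CPM in controls and from 282 over 345 to 399 CPM in LOS (-0.06 ± 0.10, edgeR adjusted p = 0.916). The minor arms miR-133a-5p (70.6 to 105.7 CPM over the 16 libraries) and miR-133b-5p (8.08 to 12.3 CPM) did not pass either. Male against female fetuses gave 0 of 8 and 0 of 460 (0% called, 62 at an unadjusted p under 0.05), with miR-1 at -0.14 ± 0.10 and miR-206 at -0.14 ± 0.11.

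miR-208b and miR-499, though encoded in different myosin genes, went up and down together from tongue to tongue. The libraries high in miR-208b (LOS 1 at 49.7, control 1 at 44.0, control 6 at 42.8 and LOS 3 at 42.0 CPM) had miR-499 at 20.8, 19.0, 24.2 and 26.6 CPM, and those at the low end (control 4 at 13.01 and LOS 5 at 13.1 CPM) had it at 9.91 and 10.1 CPM. Over the 16 tongues Pearson's r of log2 CPM was 0.867 (permutation p = 8.0e-05, adjusted 0.00048 over the 6 correlations tested) and Spearman's rho 0.779 (permutation p = 0.00059, adjusted 0.00354). Without the 2 libraries farthest from the median of miR-208b, r was 0.902. Within the groups r was 0.903 in the 9 controls (exact permutation p = 0.0017) and 0.852 in the 7 LOS fetuses (exact permutation p = 0.0315, rho 0.679 with p = 0.11). It was 0.866 in the 9 females and 0.897 in the 7 males. Relative to the reads of all other miRNAs in place of all listed reads, r was 0.867.

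This pair had the highest correlation of the 28 pairs of muscle miRNAs in tongue. Between miR-208b and miR-206, the skeletal muscle miRNA, r was -0.24, and between miR-208b and miR-133a it was 0.07, both given as descriptions. Neuronal, red cell and other marker lists were not set against this pair library by library, and their part in it was not tested. In skeletal muscle r between miR-208b and miR-499 was 0.705 (exact permutation p = 0.0556, adjusted 0.111, n = 8) and rho 0.714 (adjusted 0.0833), and without the 2 farthest libraries r was 0.720. With the control and LOS means removed it was 0.912, given without p because values centred within groups cannot be permuted freely. In muscle it ranked 11th of 36 pairs, behind miR-133a with miR-499 (r = 0.953) and miR-133b with miR-208b (r = 0.923).

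**Figure D4:**
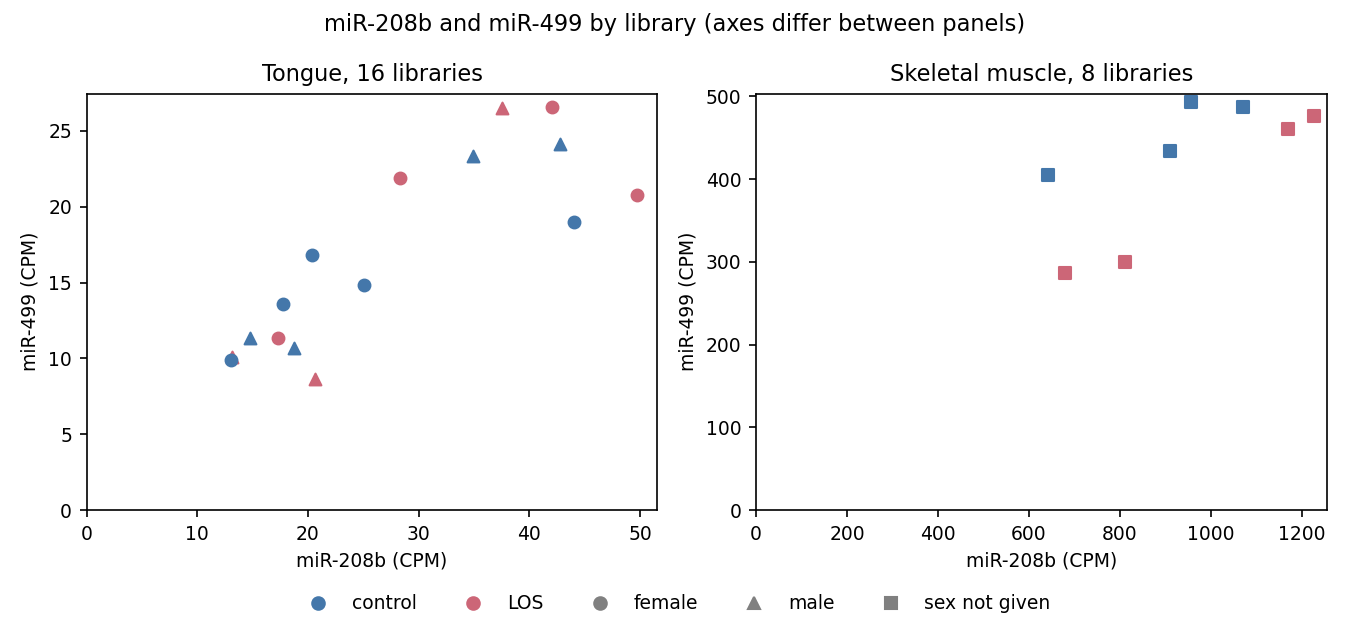
miR-499 against miR-208b (both CPM) in 16 tongue libraries (left, circles female and triangles male) and 8 skeletal muscle libraries (right), coloured by group. In tongue the points rise together in both groups and sexes, and in muscle LOS 3 and LOS 4 lie low in miR-499.

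The members of a shared transcript showed weaker relations. miR-1 with miR-133a had r = 0.530 and rho 0.550 in tongue (permutation p = 0.0329 and 0.0295, adjusted 0.0986 and 0.0833), which did not pass the correction. Without the 2 libraries farthest from the median of miR-1, r was 0.230 (n = 14, permutation p = 0.433). Leaving out the extremes of 1 of the 2 miRNAs can by itself lower r, so this value cannot show what the relation rests on. Within groups r was 0.504 in controls and 0.662 in LOS. Within sexes it was 0.820 in the 9 females (exact permutation p = 0.00748) and 0.212 in the 7 males (exact permutation p = 0.644). In muscle it was 0.649 (exact permutation p = 0.0787, adjusted 0.118) with rho 0.690. miR-206 with miR-133b had r = 0.378 and rho 0.468 in tongue (permutation p = 0.148 and 0.0691, adjusted 0.178 and 0.0833). Without the 2 farthest libraries r was 0.628 (permutation p = 0.0156), and it was 0.133 in females (exact permutation p = 0.736) and 0.774 in males (exact permutation p = 0.0214). In muscle r was -0.143 and rho -0.190 (exact permutation p = 0.744 and 0.665).

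Tongue and skeletal muscle were compared over fetuses 1 to 4 of each group, on the 414 miRNAs that both tables list. The 2 tables were made separately and cutadapt was named for tongue only, so tissue and table cannot be told apart. The tongues of fetuses 1 to 4 were all female, and the sex of the muscle samples is not given. miR-208b and miR-499, the miRNAs of myosin introns, were far lower in tongue, and this held in controls and LOS and with every scaling and test tried. In controls 1 to 4 miR-208b was 895.5 ± 182 CPM (SD) in muscle and 23.8 ± 13.8 CPM in tongue, 37.7 times lower. The scaled difference was -5.61 ± 0.40 (edgeR adjusted p = 1.23e-08), and the highest tongue library stood at 44.0 CPM against 643 CPM in the lowest muscle library. miR-499 was 455 ± 42.4 CPM in muscle and 14.8 ± 3.95 CPM in tongue, 30.7 times lower (-5.30 ± 0.26, edgeR adjusted p = 3.40e-10). They had the second and the third lowest differences of the 414. Summed fibroblast markers stood at 26617 to 38089 CPM in the 16 tongues and at 13531 to 17603 CPM in the 8 muscles without overlap, and their part and that of the epithelial markers in the tissue differences were not tested. In LOS fetuses 1 to 4 the differences were -5.17 ± 0.39 for miR-208b (28.3 times lower in CPM) and -4.60 ± 0.25 for miR-499 (18.9 times lower).

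For the other muscle miRNAs the tissue difference was smaller, and for most of them the call depended on the scaling. With TMM scaling 6 of 8 members, miR-208b and miR-499 among them, were called lower in control tongue. There 57.2% of all 414 miRNAs were called and 28.5% called lower. CPM of the groups did not overlap for 4 of 8 members in controls (64.5% of all miRNAs) and 4 of 8 in LOS (60.1%). Of the members, 0 were called higher, against 28.7% of all miRNAs. With library totals alone, an alternative added after the data were seen, the median of all miRNAs moved from 0.00 to 0.36 in controls and from 0.03 to 0.40 in LOS. The edgeR calls went from 119 higher of 237 to 213 higher of 288 in controls and from 132 of 264 to 213 of 283 in LOS. miR-133a was -0.40 ± 0.09 in controls with TMM (edgeR adjusted p = 0.00146) and -0.04 ± 0.10 with totals alone (edgeR adjusted p = 0.697), and miR-133b -0.46 ± 0.12 and -0.11 ± 0.11. miR-206 was -0.66 ± 0.16 with TMM (edgeR adjusted p = 0.00222) and -0.30 ± 0.15 with totals alone (edgeR adjusted p = 0.0927). miR-133b-5p, at 9.18 ± 1.04 CPM against 13.1 ± 0.37 CPM in muscle, was lower with both in controls (-0.86 ± 0.16 and -0.51 ± 0.17).

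In the LOS fetuses all 8 were called, 2 higher and 6 lower in tongue, where 63.8% of the 414 miRNAs were called, 31.9% in each direction. With totals alone 4 of 8 were, and miR-133a (0.14 in place of -0.23) and miR-133b (0.0038 in place of -0.36) changed sign. miR-133a-5p was higher in tongue LOS with both scalings (0.43 ± 0.11 and 0.79 ± 0.10), and miR-1 too (0.41 ± 0.15 with an edgeR adjusted p of 0.0309, and 0.76 ± 0.16). In controls miR-133a-5p and miR-1 did not pass with TMM (0.25 and 0.10) and did with totals alone (0.60 and 0.46). Leaving out 1 LOS fetus ended the call of miR-133a (LOS 2, 3 or 4, the highest adjusted p being 0.157), of miR-133b (LOS 2 or 3, up to 0.0669), of miR-1 (LOS 1, 0.163) and of miR-206 (LOS 4, 0.112). In controls, leaving out fetus 1 brought miR-133a-5p past the threshold (0.0354).

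Ratios within a library do not depend on the scaling. Reads of miR-206 over those of miR-1 were 2.41 to 3.86 in the 8 muscle libraries and 1.64 to 2.31 in the 16 tongues, with no overlap. miR-133a over its minor arm miR-133a-5p gave 260.2 to 321 in muscle and 155.3 to 215.7 in tongue, again apart. miR-206 over miR-208b gave 0.549 to 1.51 in muscle and 12.4 to 49.1 in tongue. miR-133a over miR-133b overlapped, at 4.04 to 5.44 in muscle and 4.18 to 6.55 in tongue. So did miR-208b over miR-499, at 1.59 to 2.71 in muscle and 1.21 to 2.39 in tongue. miR-133a over miR-1, miR-133b over miR-133b-5p and miR-133b over miR-206 overlapped too. The share of all miRNA pairs whose ratio separates the 2 tissues was not computed.

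The LOS difference in tongue was set against that in muscle in 1 fit of 16 libraries, whose 8 tongues were all female. None of the 8 muscle miRNAs and none of the 414 miRNAs passed (0% called by edgeR, 21 at an unadjusted p under 0.05). All 8 estimates of tongue minus muscle lay above 0, with a median of 0.20 beside 0.04 over all miRNAs. The highest was that of miR-499 at 0.70 ± 0.31 (interval 0.04 to 1.36, unadjusted p = 0.0392, edgeR adjusted p = 0.825), ahead of miR-208b at 0.44 ± 0.47. With other tongues the signs differed. LOS against control was 0.54 for miR-208b, 0.45 for miR-499 and 0.24 for miR-133b in female tongues alone and -0.28, -0.26 and -0.26 in male tongues alone, none of them called. The difference between the sexes was not tested. Over all 16 tongues miR-133b was at 0.03, below its 0.13 in muscle, and miR-208b and miR-499 stood at 0.19 and 0.14, beside 0.13 and -0.24 in muscle.

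Kidney and liver held traces of these miRNAs. miR-133a stood 8.44 ± 0.47 higher in control muscle than in control kidney (log2, edgeR adjusted p = 5.74e-08), in a comparison that called 74.4% of 398 miRNAs. Against control liver, miR-133a was 8.52 ± 0.11, miR-133b 10.78 ± 0.25 and miR-499 6.39 ± 0.16 higher in muscle (edgeR adjusted p from 7.29e-13 to 7.25e-11), in a comparison that called 84.6% of 415 miRNAs. With totals alone the liver differences were 7.73, 9.99 and 5.596, the median of all miRNAs moved from -0.04 to -0.83, and 114 of 371 calls were higher in muscle in place of 169 of 351.

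In kidney, miR-133a stood at 21.2, 87.6, 30.1 and 40.4 CPM in controls and at 37.7, 17.7, 20.8 and 20.6 CPM in LOS. The difference of -0.92 ± 0.43 was the lowest of the 436 miRNAs and did not pass (unadjusted p = 0.0576, edgeR adjusted p = 0.647), with 0% called. Control 2 was the highest library, and without it the difference was -0.36. Control 2 was also the kidney library highest in the summed smooth muscle markers miR-143 and miR-145, at 57957 CPM against 38441 to 49722 CPM in the other 7. In summed fibroblast markers it stood at 10731 CPM, below the other controls (10785 to 12469 CPM) and above LOS (9404 to 10699 CPM). The part of these markers in the difference was not tested.

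In liver, miR-133b had the largest within-group spread of all 563 listed miRNAs (SD 1.44 on the log2 scale, median of all 0.19). It stood at 2.27, 3.35, 5.17, 1.1835 and 4.35 CPM in controls, at 15.7, 21.4, 2.06 and 8.35 CPM in LOS and at 28.6, 1.68, 1.85 and 2.54 CPM in ART, on 4 to 137 reads a library. LOS 1, LOS 2, LOS 4 and ART 1 lay above every control, while LOS 3 and the other 3 ART fetuses lay within the control range. LOS against control gave 1.80 ± 0.87, the highest log2 difference of the 563, which did not pass (unadjusted p = 0.058, edgeR adjusted p = 0.362, with 1.24% of miRNAs called and 0 of the 3 members). ART against control, which uses the same controls, gave 1.44 ± 0.89 (edgeR adjusted p = 0.715, 0% called) and -0.70 without ART 1. LOS against ART gave 0.37 ± 0.80 (edgeR adjusted p = 0.867, 2.66% called) and 2.49 without ART 1 (edgeR adjusted p = 0.0841).

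miR-133a was also high in some of the same livers, at 107 CPM in LOS 1, 121.6 CPM in LOS 2 and 169 CPM in ART 1, where the controls stood at 64.4, 67.8, 74.7, 80.5 and 73.8 CPM. LOS 3 and LOS 4 (62.6 and 73.9 CPM) and the other ART fetuses (63.1, 58.4 and 52.8 CPM) lay within or below the control range. Neither LOS (0.32 ± 0.31) nor ART (0.27 ± 0.31) passed against control. Reads of miR-133a over those of miR-133b were 6.82, 5.68, 8.85 and 5.91 in LOS 1, LOS 2, LOS 4 and ART 1. They were 14.5 to 68.0 in the other 9 livers, on 4 to 20 reads of miR-133b. The 4 livers named were picked by their high miR-133b, the denominator, so their lower ratios were largely set by that choice. miR-499 stood at 8.58, 7.53, 12.4, 8.88 and 8.22 CPM in controls, at 9.04, 7.77, 5.96 and 6.85 CPM in LOS and at 11.1, 6.72, 6.00 and 7.11 CPM in ART. ART 1 was the highest ART liver in all 3 miRNAs and LOS 3 the lowest LOS liver in all 3, but the miR-499 values of LOS 1, LOS 2, LOS 4 and ART 1 did not exceed the highest control (LOS against control -0.31 ± 0.21, edgeR adjusted p = 0.512). miR-206, miR-208b and miR-1 were not listed in liver.

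Among the markers of other contractile or connective tissue, summed miR-143 and miR-145 stood at 71996, 73003, 84288 and 66195 CPM in LOS 1, LOS 2, LOS 4 and ART 1 and at 56346 to 74461 CPM in the other 9 livers, so that LOS 4 alone lay above those 9. Summed fibroblast markers stood at 4060, 3799, 5372 and 3626 CPM in those 4 and at 2774 to 6323 CPM in the others.

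**Figure D5:**
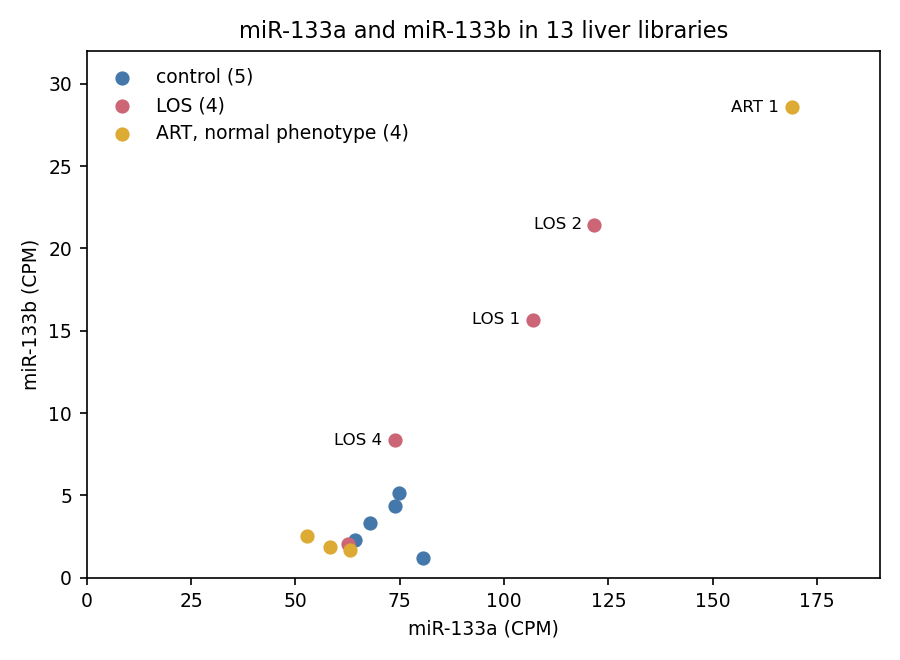
miR-133b against miR-133a (both CPM) in the 13 liver libraries, coloured by group, with the 4 libraries above 6 CPM of miR-133b named. LOS 1, LOS 2 and ART 1 are high in both miRNAs, LOS 4 in miR-133b alone, and the remaining 9 lie together at the lower left.

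Among the 374 miRNAs listed in all 4 tissues, the lower of the mean control levels in muscle and tongue was divided by the higher of those in kidney and liver. miR-133a came first, at 210.4, which is a description, since it was chosen as a muscle miRNA. The 5 non-members that came next were miR-378-1-5p (17.9), miR-378 (16.04), miR-378c (10.8), miR-378b (7.24) and miR-381 (5.70). 4 of these 5 carry the name miR-378. The miRNA named miR-378 without a letter is known from an intron of PPARGC1B. Where miR-378b and miR-378c lie was not looked up. miR-378 itself stood at 34554 CPM in control muscle and 23249 CPM in control tongue, while kidney had 1449 CPM and liver 1207 CPM.

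Across the 16 tongues, the miRNA most like miR-206 was miR-493 (r = 0.904, and 0.564 over the 8 muscle libraries), followed by miR-299-3p (0.770 and 0.540). For miR-1 they were miR-411a-3p (0.806 and 0.840) and miR-369-5p (0.756 and 0.833), and for miR-133a miR-381 (0.811 and 0.659) and miR-486 (0.801 and -0.651). miR-133b was most like miR-299-3p (0.754 and 0.614) and miR-temp26-5p (0.736 and 0.571). miR-133a-5p was most like miR-381-5p (0.773 and 0.812) and miR-378d (0.732 and 0.873), and miR-133b-5p had none above 0.60. miR-208b was most like miR-129-5p (0.745 and 0.111) and miR-449a (0.709 and 0.789), and miR-499 most like miR-6119-3p (0.672, not listed in muscle) and miR-129-5p (0.659 and 0.148). These r values describe the libraries, which share depth and composition, and carry no p.

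Other miRNAs tied to the growth or differentiation of muscle cells were tested where listed. They came from a list of 24 names such as miR-486, miR-378, miR-181a and miR-221. With edgeR and TMM scaling none was called for LOS in either striated tissue. Whether the miRNAs called in muscle with other settings are on this list was not looked at. Of its entries 0 of 36 were called in muscle (17 above 0 and 19 below, median -0.02 beside -0.01 over all miRNAs) and 0 of 42 in tongue (20 above and 22 below, median -0.02 beside 0.01). The lowest p in muscle were those of miR-125b (-0.55 ± 0.10, edgeR adjusted p = 0.0526) and miR-26a (0.66 ± 0.19, edgeR adjusted p = 0.230). In tongue they were miR-221 (0.23 ± 0.10) and miR-221-5p (0.25 ± 0.12), both with an edgeR adjusted p of 0.843. Between control tongue and control muscle, 13 of 36 were called higher and 14 lower with TMM scaling, where 28.7% and 28.5% of all 414 miRNAs were. In LOS fetuses 11 were called higher and 16 lower, where 31.9% of all miRNAs were called in each direction.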

How the data were processed

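Small RNA libraries of 45 tissue samples were sequenced after TruSeq preparation from TRIzol RNA, per the labels' protocols. The deposited tables, 1 per tissue, give raw read counts of each mature miRNA as whole numbers. The submitters' processing notes name Bowtie and UMD3.1 for every tissue and cutadapt 1.18 for tongue. No source used here gives the counting tool or a filter on abundance. A miRNA annotation was not used, so positions and sequences are left out.

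From these counts CPM, within-library ratios and log2 differences were computed, the latter with edgeR 4.0.16 (R 4.3.3): TMM scaling, quasi-likelihood test, Benjamini-Hochberg adjustment across the whole table and a call at an adjusted p under 0.05. Tongue was fitted with sex, the 3 liver groups in 1 fit, and tissues against each other on shared miRNAs of fetuses 1 to 4. filterByExpr removed 0 miRNAs. The TMM factors lay between 0.740 and 1.39. Correlations used log2 CPM (all p two-sided, 100000 permutations where n is 10 or more and exact otherwise). The test was also run on simulated counts. The changes set there were larger than the LOS estimates of the muscle miRNAs in muscle and tongue. That run therefore cannot speak to differences as small as these. Alternatives were RLE scaling, scaling without the muscle miRNAs, DESeq2 1.42.0, limma-voom 3.58.1, a mean CPM of at least 10, a replicate block, leaving out each library and, for tongue, each sex alone.

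The muscle miRNAs and the myogenic and marker lists were chosen with earlier results of these data known. All listed muscle miRNAs are named. Other miRNAs are named as the 5 highest in the score of muscle and tongue over kidney and liver, the 2 most correlated with each muscle miRNA over the tongues, and the 2 myogenic miRNAs of lowest p in muscle and in tongue. No libraries of a group were duplicates (the lowest chi-square between any pair was 23.9 times its degrees of freedom).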

Additional observations from a re-analysis of the deposited data

Results flagged for a closer look

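Of 45 groups of 4 to 10 libraries looked at, one for each muscle miRNA, tissue and condition, 4 had a library that stood apart from the rest of its group by more than the 95% critical value of Dixon's test, and chance gives about 1 in 20. miR-133a in kidney LOS 1 stood at 37.7 CPM, with the nearest of the other 3 at 20.8 CPM. miR-499 in liver control 3 stood at 12.4 CPM, with the nearest of the other 4 at 8.88 CPM. Liver ART 1 stood apart in both miR-133 miRNAs, with miR-133a at 168.9 CPM (nearest 63.1 CPM) and miR-133b at 28.6 CPM (nearest 2.54 CPM).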

How the results depend on the processing

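No muscle miRNA was called for LOS, ART or sex within a tissue under any alternative run. Counts over all listed miRNAs moved more. In muscle LOS against control, 0 calls became 3 with RLE scaling, 3 with scaling without the muscle miRNAs, 3 with a mean CPM of at least 10 and 17 with DESeq2, and 0 to 1 when a library was left out (1 without LOS 3). In kidney 0 calls became 3 with DESeq2 and 0 to 2 without a library (2 without LOS 2). In liver the calls went from 7 to 20 with DESeq2 and 6 to 12 without a library (12 without LOS 2) for LOS against control, from 0 to 6, 1 with 2 groups fitted alone and 0 to 5 (5 without control 5, 1 without ART 4) for ART against control, and from 15 to 27, 6 and 5 to 20 (5 without LOS 1, 9 without LOS 3, 8 without ART 1, 7 without ART 2) for LOS against ART.

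The replicate number as a block gave 0, 1 and 3 calls in those liver comparisons, and turned miR-499 in tongue LOS against control to -0.0307. Same-numbered libraries of control and LOS did not deviate together (r from -0.34 to 0.27), and those of muscle and tongue only in part (r from -0.09 to 0.38), and the labels do not state that a number marks 1 fetus across tissues. With the fetus number as a block in tongue against muscle, 6 of 8 members were called in controls, beside 243 among the 414 shared miRNAs. In LOS 7 of 8 were called, beside 268 among the 414, and miR-133a had an edgeR adjusted p of 0.0604.

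In tongue LOS against control, signs turned for miR-133a in females alone (0.0212) and for miR-133b (-0.26), miR-208b (-0.28) and miR-499 (-0.26) in males alone. Without scaling factors, tongue against muscle in LOS called 4 members, beside 283 among the 414 shared miRNAs, with miR-133a at 0.14 and miR-133b at 0.0038. The correlation of miR-206 with miR-133b in muscle was 0.149 without the 2 farthest libraries. Leaving out 1 library turned the sign of uncalled differences over these ranges. In LOS against control they were -0.0040 to 0.28 for miR-208b and -0.11 to 0.12 for miR-499-3p in muscle, and -0.0350 to 0.10 for miR-133b and -0.0140 to 0.29 for miR-499 in tongue. Male against female tongue gave -0.13 to 0.0125 for miR-133b, -0.29 to 0.0456 for miR-208b and -0.23 to 0.0930 for miR-499. In liver, ART against control gave -0.30 to 0.44 for miR-133a and -0.70 to 1.77 for miR-133b, and LOS against ART -0.12 to 0.61 for miR-133a, -0.0424 to 2.49 for miR-133b and -0.21 to 0.13 for miR-499. The tongue minus muscle LOS difference of miR-133b ran from -0.0148 to 0.20. Except where named above, the cause was not tested. Low counts limit miR-133b in liver (4 to 137 reads a library) and miR-133b-5p in muscle (37 to 97), and 4 libraries a group limit every muscle comparison.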
